A study of Mus musculus with 6 samples.

Results

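The RNA levels of 90 genes named for the oxidative phosphorylation complexes were compared between 2 mg and 20 mg maternal folic acid (FA) in newborn mice. The genes were taken by name from 34797 gene names on the array, namely every name that begins with Ndufa, Ndufb, Ndufc, Ndufs, Ndufv, Cox4 to Cox8, Atp5 or Uqcr, and the names Sdha, Sdhb, Sdhc and Sdhd. They were read by 134 of 55681 probes. Complex I had 36 genes (50 probes), complex II 4 genes (6 probes), complex III 8 genes (15 probes), complex IV 19 genes (23 probes) and complex V 15 genes (29 probes). The name rule also took 4 complex I assembly factors (5 probes), the supercomplex factor Cox7a2l (3 probes), and Cox4nb, Atp5s and Atp5sl, which are not subunits (3 probes). Ndufa4 and Ndufa4l2 were counted with complex IV, where the Ndufa4 protein is now placed.

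C57BL/6J dams ate a diet with 2 mg or 20 mg FA per kg from 1 week before mating, and RNA was taken from their pups on postnatal day 1 (P1). Each single-colour array held the RNA of 3 pups of one sex, each from a different dam. There was 1 array for females at 2 mg, 2 arrays for females at 20 mg, 1 array for males at 2 mg and 2 arrays for males at 20 mg, and the methods state that the 20 mg extraction was repeated in a different batch. The titles and methods give the tissue as cerebellum, while a label field gives whole brain. Both 20 mg arrays of a sex were set against the same 2 mg array, so p-values rest on the spread within the pairs of 20 mg arrays. The arrays of each pair differed in pool, slide and scan day, and these parts of the spread cannot be told apart.

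Oxidative phosphorylation takes place in the inner mitochondrial membrane. Complexes I and II pass electrons from NADH and succinate to ubiquinone, complex III passes them to cytochrome c and complex IV to oxygen, and the proton gradient that builds up drives ATP synthesis by complex V. Most subunits are encoded in the nucleus and the rest in mitochondrial DNA, and in neurons most of the ATP is spent on moving ions across the cell membrane.

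The arrays were unequal in quality. The share of all probes well above background was 63.6% for females at 2 mg, 71.9% and 23.3% for females at 20 mg (replicates 1 and 2), 65.8% for males at 2 mg, and 51.1% and 55.7% for males at 20 mg. Female 20 mg replicate 2 therefore stood apart, and it shared slide 2 and the earlier scan day with male 20 mg replicate 1. Counts by a 2.5-fold rule and the medians over all members are also given without these arrays. Dose differences of single genes are given only with them. Of 12 cerebellum markers, 7 to 11 were well above background on each array, while Gabra6, a marker of mature granule cells, was well above background on none of the 6. The summed signal of 5 choroid plexus markers was 2886 in the female 2 mg pool against 75698 and 27837 at 20 mg, and 20732 in the male 2 mg pool against 42319 and 41657. Most of that sum was Ttr, the transthyretin gene, and of the 5 markers 5 and 4 lay above the control in females at 20 mg and 5 and 3 in males. The sum for 6 red blood cell markers ranged from 30564 to 184152 and that for 7 skeletal muscle markers from 795 to 1282, and the part of such cells in the values below was not tested. In pooled tissue, fewer cells of a type and less RNA per cell cannot be told apart.

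Nearly all of the subunit genes were detected. On the 6 arrays 133, 133, 116, 132, 127 and 130 of the 134 probes were well above background, in the order female 2 mg, female 20 mg replicates 1 and 2, male 2 mg, and male 20 mg replicates 1 and 2. The same order holds for every set of 6 values below. Their median level, as log2 of the quantile-normalized signal, was 14.14, 14.05, 13.87, 14.01, 13.60 and 13.65. On all 6 arrays 116 of the 134 probes were well above background, or 86.6%, against 22.3% of all probes, and none of the spots was saturated.

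Some tissue forms of complex IV subunits lay near background, while others were detected. Cox6a1, the form found in most tissues, gave 17.09, 16.90, 17.03, 17.02, 17.44 and 16.81, and Cox8a gave 16.33, 15.89, 16.70, 16.16, 16.12 and 16.02. Each value lay far above the floor of 3.32, and the arrays differed little beside the distance to it. The muscle form Cox8b passed background on 3 of 6 arrays, with values from 3.32 to 5.25, and the testis form Cox7b2 on 2 of 6, with values from 3.32 to 5.09. Cox8c, also a testis form, passed on none of the 6 arrays and was the only one of the 134 probes outside the statistical fit. Other tissue forms were detected: Cox6a2, the heart and muscle form, ranged from 6.60 to 9.61, Cox7a1, also of heart and muscle, from 8.73 to 12.06, and the testis form Cox6b2 from 8.70 to 10.24, each on 6 of 6 arrays. Cox4i2, a form known from lung and from low oxygen, gave 8.54, 7.82, 3.71, 8.39, 6.22 and 10.79, and was well above background on 5 of 6. Its 20 mg arrays lay on both sides of the 2 mg array in males and below it in females.

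**Figure D1:**
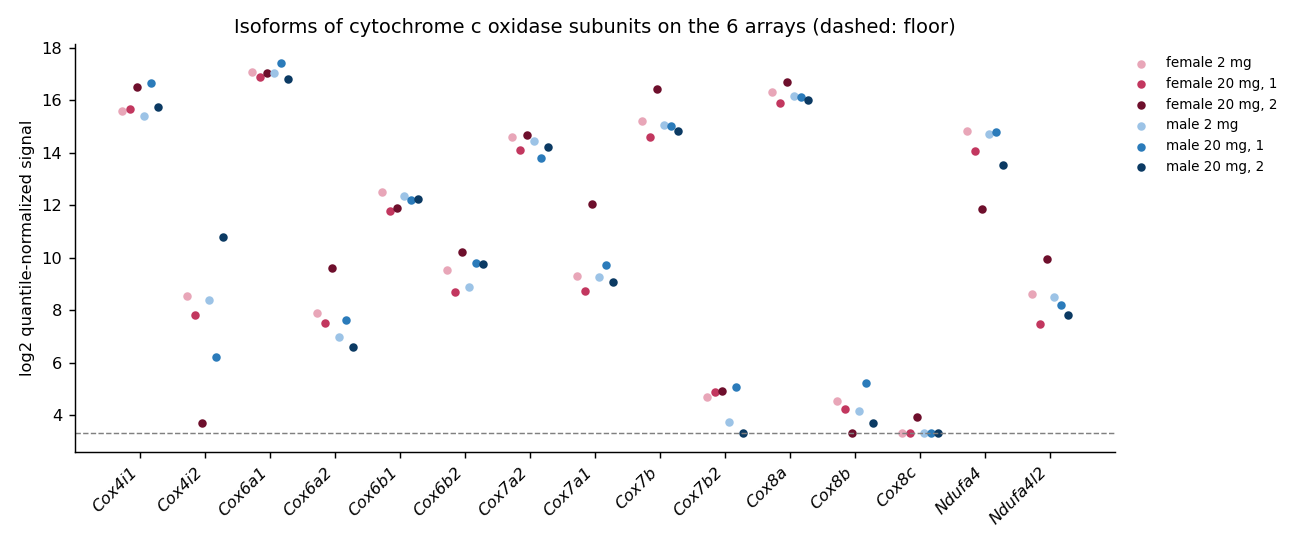
Log2 quantile-normalized signal (y axis) of the probes for the isoforms of cytochrome c oxidase subunits on the 6 arrays, 1 point per array. The forms found in most tissues lie high on each array, whereas Cox7b2, Cox8b and Cox8c lie at or near the dashed floor of 3.32. The tissue forms Cox6a2, Cox6b2 and Cox7a1 lie well above it. Probes differ in brightness, so distances between probes are not ratios of RNA.

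No subunit gene passed the test for a dose difference. With limma, 0 of 133 probes had an adjusted p under 0.05 for either sex, for the mean of the sexes or for their difference, and the share of all 37211 probes called was 0% in each. At an unadjusted p under 0.05 limma gave 0 members in males (background 0.199% of all probes), 0 in females (0.433%), 1 over both sexes (0.39%) and 0 for the female minus male difference (0.137%). The 1 probe read Cox7c, described below. The standard error of a dose difference within a sex had a median of 0.93 over the members on the log2 scale, and 0.66 over both sexes. The median dose difference of the members was -0.19 (males), -0.07 (females) and -0.18 (mean of the sexes), beside -0.04, -0.21 and -0.15 for all probes of the fit. Restricted to probes well above background on all 6 arrays, the medians were -0.22 in males and -0.03 in females, beside -0.03 and 0.20 for all such probes. With each array moved to a common 75th percentile instead of quantile normalization, the median of all probes became -0.12 in males and 0.45 in females, and that of the members -0.47 and 0.38, so the direction in females turned with the scaling.

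The members did not shift together across the 4 arrays at 20 mg. Set against the 2 mg array of the same sex, the median shift was -0.16 and 0.07 on the female arrays and 0.06 and -0.28 on the male arrays (replicates 1 and 2). Below 0 lay 86, 65, 65 and 103 of 133 probes, in the same order, beside 47.7%, 58.8%, 46.3% and 56.6% of all probes of the fit. The shifts spread far more on slide 2: past 2.5-fold lay 34 probes on female replicate 2 and 20 on male replicate 1, against 0 on female replicate 1 and 4 on male replicate 2. As shares of the members these are 25.6%, 15.0%, 0% and 3.01%, beside 52.8%, 19.3%, 5.01% and 18.3% of all probes of the fit on the same arrays, so over all probes the 2 male arrays were nearly equal. The 2 mg arrays of the 2 sexes, which shared a slide, differed by a median of 0.09, with no probe past 2.5-fold. Across the 116 probes detected throughout, the shifts on the slide 2 arrays had a Pearson correlation of 0.39 and those on the other 20 mg arrays -0.03. Over all 12408 probes detected throughout, the same correlations were 0.28 and -0.45. The points share slide or scan day and the probes' base composition.

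**Figure D2:**
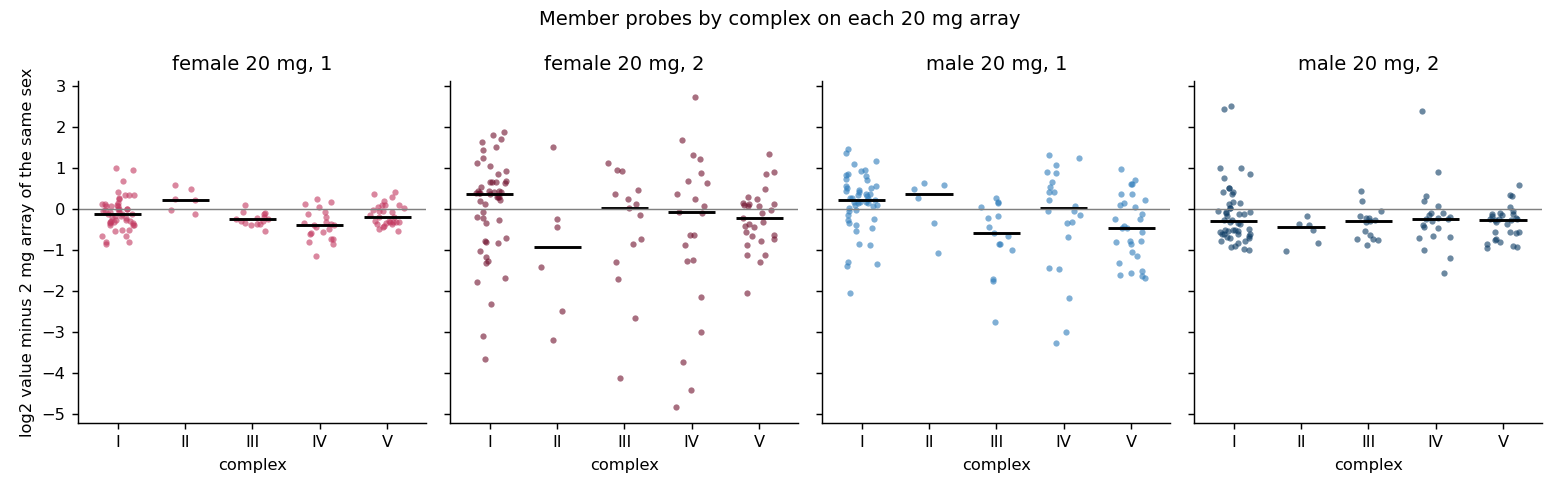
Shift of each probe in log2 units (y axis) on the 4 arrays at 20 mg, each against the 2 mg array of the same sex, by complex; points are probes and bars their medians. Complex III and complex V medians lie below 0 on both male arrays (-0.58 and -0.28, -0.46 and -0.25), while complex I runs from -0.28 to 0.38.

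By complex, the order of the medians differed between arrays. Complex I gave -0.11 and 0.38 in females and 0.23 and -0.28 in males, and complex II 0.24 and -0.92 in females and 0.38 and -0.44 in males. In both complexes the 2 pools of a sex lay on opposite sides of 0. Complex III gave -0.24 and 0.02 in females and -0.58 and -0.28 in males, with 14, 7, 11 and 13 of 15 probes below 0. Complex IV gave -0.39 and -0.07 in females and 0.02 and -0.23 in males, with 18, 12, 11 and 17 of 22 below 0. Complex V gave -0.18, -0.22, -0.46 and -0.25, the only complex with a median below 0 on each of the 4 arrays, with 20, 17, 19 and 25 of 29 probes below 0. That direction did not hold on female replicate 2 with the common 75th percentile, where the complex V median was 1.02 and that of all probes detected on all 6 arrays 0.91; on the other 3 arrays it stayed below 0 (-0.35, -0.88 and -0.59). With that scaling the medians of complexes I, II and IV on male replicate 1 were below 0 (-0.12, -0.02 and -0.41), and that of complex IV on female replicate 2 was above 0 (1.11). No test was made of a complex as a whole.

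The complex I genes of the redox core, which carry the flavin and the iron-sulfur clusters from NADH to ubiquinone, were read by 8 probes. Ndufv1, the subunit that binds NADH, gave 13.90, 14.32, 14.54, 13.89, 14.06 and 14.33. All 4 arrays at 20 mg lay above their 2 mg array, by less than the spread that limma assigns (difference over both sexes 0.42, SE 0.63). Ndufv2, which carries an iron-sulfur cluster beside it, gave 14.10, 14.25, 14.31, 14.03, 11.98 and 13.42. Females lay above and males below their 2 mg arrays, with differences of 0.18 in females and -1.33 in males (limma p for the difference between the sexes 0.271, adjusted p 1). Ndufs1, Ndufs3 and Ndufs7, further subunits of the core, differed over both sexes by 0.38, 0.37 and 0.65, and Ndufs8, another cluster protein, by -0.14, all within 1 SE. Among the accessory subunits, which surround the core, Ndufb7 had the largest difference over both sexes of the complex I probes detected throughout, with 14.31, 14.29, 16.03, 14.20, 15.66 and 14.61. It stood above its control on slide 2 by more than on the other arrays.

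In complex II, the succinate dehydrogenase that is also part of the citric acid cycle, the flavoprotein Sdha gave 12.84, 13.33, 10.37, 13.09, 12.76 and 12.26. The female pools at 20 mg lay on both sides of the 2 mg pool, about 3 log2 units apart. The membrane anchor Sdhd gave 13.68, 13.66, 13.24, 13.58, 13.86 and 13.22, close together on the 6 arrays. The anchor Sdhc differed by -0.17 in females and -1.04 in males at its brighter probe and by -0.58 and 0.16 at the other. The iron-sulfur protein Sdhb was read by 2 probes that do not overlap, shown because they shifted to opposite sides on 1 array. The first lies at chr4:140535052-140535108 (mm9, plus strand; its first 30 bases) and the second at chr4:140529606-140529665 in the coding region.
Sdhb, brighter probe: tgtcaaacagctggagtctccctaagtaca
Sdhb, second probe: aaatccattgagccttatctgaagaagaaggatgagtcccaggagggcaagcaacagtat
The brighter probe gave 14.75, 14.98, 16.28, 14.75, 15.34 and 14.37, and the second 12.60, 13.20, 9.40, 12.62, 13.28 and 12.12. On female 20 mg replicate 2 the log2 shift against the same 2 mg array was 1.52 at the first and -3.20 at the second, whereas on the other arrays at 20 mg the 2 probes stayed within 0.37 of each other.

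In complex III, the core proteins Uqcrc1 and Uqcrc2 differed over both sexes by -0.26 (SE 0.73) and -0.36 (SE 0.67). Uqcrfs1, the Rieske protein that takes electrons from ubiquinol, gave 13.90, 13.85, 14.04, 13.99, 12.25 and 13.12. Both male pools at 20 mg lay below the male control and the female pools on both sides of theirs (male difference -1.30, limma adjusted p 1). The small subunit Uqcrq was read by 2 probes 100 bases apart. At the brighter probe it gave 15.01, 14.78, 15.04, 15.12, 14.91 and 14.84, and at the second 14.03, 13.73, 9.91, 13.86, 12.17 and 13.81. The second probe lay below its controls on all 4 arrays, by a large amount only on those of slide 2. Uqcr11, another small subunit, had the largest difference over both sexes among the complex III probes detected throughout, 0.16 (SE 0.65).

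In complex IV, Cox4i1, the regulatory subunit found in most tissues, gave 15.61, 15.67, 16.50, 15.41, 16.67 and 15.73. All 4 values at 20 mg lay above their controls, with a difference over both sexes of 0.63 (SE 0.65). Cox5a, a small nuclear-encoded subunit, differed by -0.24 over both sexes. Ndufa4 gave 14.85, 14.06, 11.85, 14.71, 14.78 and 13.53, below the control in both female pools and in 1 of 2 male pools. Cox5b, the zinc-binding subunit, was read by a probe placed on chromosome 15 and by one placed on chromosome 1, so part of its signal may come from a related copy and its values are uncertain. The first gave 14.60, 14.05, 13.35, 14.49, 14.71 and 14.70, and the second 14.93, 14.60, 10.53, 14.79, 13.37 and 14.88.

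Cox7c, a small subunit of complex IV, had the only probe with an unadjusted p under 0.05. Its 3 probes are shown because they gave different answers. Their first 30 bases lie on the minus strand of mm9 at chr13:86186331-86186360, chr13:86184477-86184506 and chr13:86184433-86184462, and the probes start at bases 40, 345 and 389 of the transcript.
Cox7c, base 40: tgtagaaaggagagttaggtggtacggcca
Cox7c, base 345: aaagtttaagagatgatctgaaaattggat
Cox7c, base 389: cttatactagaaaaaattgtaaataaacta
The probe at base 345 gave 14.56, 14.19, 12.42, 14.61, 11.35 and 13.62. All 4 values at 20 mg lay below their controls, with a difference of -2.13 in males and -1.26 in females, and a mean of the sexes of -1.69 (SE 0.75, limma p 0.0356, adjusted p 1). The probe at base 389 was well above background on 4 of 6 arrays and gave 7.06, 6.93, 3.32, 7.16, 4.17 and 5.61. It was the only member past 2.5-fold on both 20 mg arrays of a sex taken alone, lower in males (1 of 133, background 1.36%), and no member was so in the other direction or in females (backgrounds 0.422% for higher in males, 1.64% for lower and 0.58% for higher in females). The probe at base 40, the brightest of the 3 by its mean, gave 13.62, 13.75, 12.75, 13.83, 14.36 and 13.16, a difference of -0.07 in males and -0.37 in females. The G and C content of the 3 whole probes was 55%, 25% and 28.3%.

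**Figure D3:**
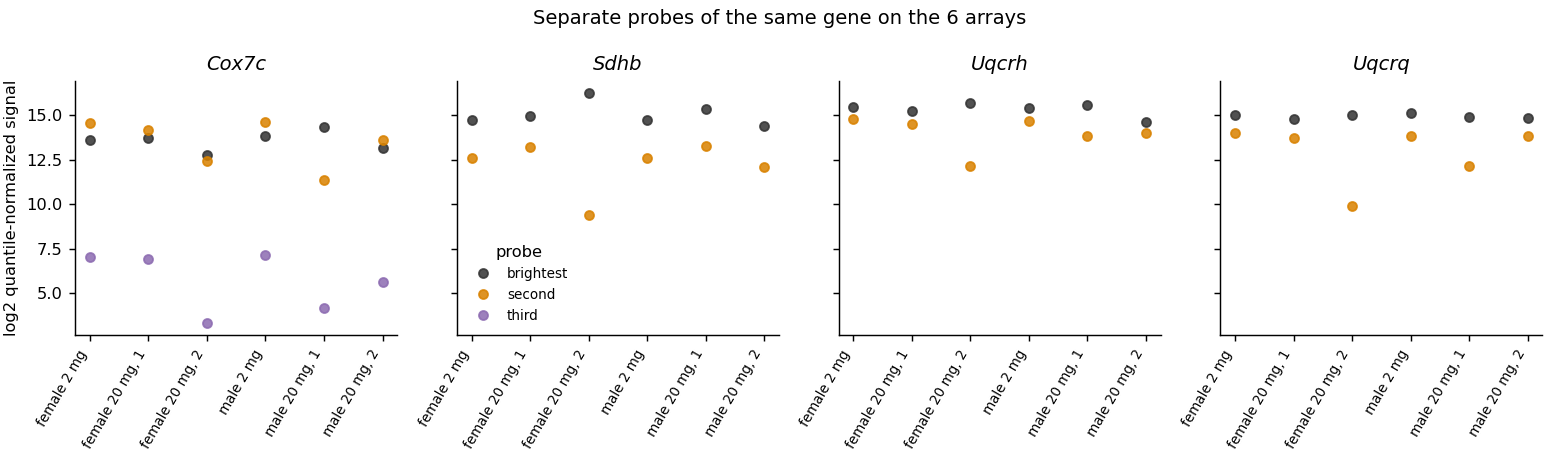
Log2 quantile-normalized signal (y axis) of the separate probes of Cox7c, Sdhb, Uqcrh and Uqcrq on the 6 arrays (x axis), 1 point per probe and array. On the 2 mg arrays and the arrays outside slide 2 the probes of a gene keep their distance, whereas on female 20 mg replicate 2 the probes of Sdhb lie at 16.28 and 9.40.

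In complex V, the genes of the catalytic head, which makes ATP, were read by 6 probes, with medians of -0.05 and -0.34 in females and -0.44 and -0.12 in males. On female replicate 2, 5 of the 6 lay below 0, the lowest at -1.12. Atp5a1, the alpha subunit, gave 15.13, 14.99, 14.81, 15.04, 13.73 and 14.89, and Atp5b, the beta subunit with the catalytic sites, 16.08, 16.03, 15.86, 15.91, 15.14 and 15.96. Of both genes, 3 of 4 pools at 20 mg lay within 0.32 of their control and male replicate 1 lay lower. Atp5c1, the central stalk subunit gamma, differed over both sexes by -0.09 (SE 0.63). The c ring, which turns in the membrane, is encoded by Atp5g1, Atp5g2 and Atp5g3, and these differed over both sexes by 0.28, 0.15 and -0.45 at their brightest probes. The second probe of Atp5g1 shifted by -0.32 and -0.88 in females and -0.76 and 0.35 in males. That of Atp5g2 shifted by -0.52 and -0.65 in females and 0.98 and -0.03 in males. Over both sexes each second probe lay below 0, opposite to the brightest probe of its gene. The 18 probes of the stalk and membrane subunits had medians of -0.28 and 0.05 in females and -0.51 and -0.55 in males. Several read the same gene, with 6 for Atp5l. On male replicate 2, 18 of 18 lay below 0, beside 77.4% of the members, 56.6% of all probes of the fit and 61.6% of all probes detected on all 6 arrays. Of the latter, 4037 of 4773 with under 40% G and C lay below 0 on that array. Among the 18, Atp5f1, the peripheral stalk subunit b, gave 13.55, 13.86, 11.52, 13.51, 11.95 and 12.95 at its second probe. This was the lowest difference of the complex V probes detected throughout (-0.96 over both sexes, SE 0.75).

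The 2.5-fold rule of the study, which carries no test, picked few of the members. It first removes probes of low variance, and 13 of 134 members passed that filter, or 9.70%, against 27.4% of all probes. In males 2 members were lower, both of them Cox7c probes, against 2.17% of all probes, and 0 were higher (1.42%). In females 9 were lower (10.3%) and 0 higher (8.65%). The 9 probes read Ndufa3, Ndufv3, Ndufaf3, Uqcrq, Cox4i2, Cox5b, Cox7c, Ndufa4 and Atp5s. For Ndufa3, Ndufv3, Uqcrq, Cox5b and Cox7c it was not the brightest probe of the gene. All 9 were lower on female replicate 2 than on replicate 1, and without replicate 2 the count in females was 0. Without male replicate 2 the male counts became 7 lower and 1 higher, and without male replicate 1 they became 1 lower and 3 higher. The share of all probes was not counted with an array left out, so these counts have no background beside them.

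Another reading asked only for the same direction, of any size, on all 4 arrays at 20 mg. The arrays of a sex share 1 control, so the 4 directions are not independent. Of 133 members 17 were lower on all 4, or 12.8%, against 6.69% of all probes of the fit, and 6 were higher, against 5.13%. The 17 probes read 13 genes: Ndufb2, Ndufb4 and Ndufc2 of complex I, Sdhc of complex II, Uqcr10, Uqcrb, Uqcrh and Uqcrq of complex III, Cox6b1, Cox6c and Cox7c of complex IV, and Atp5a1 and Atp5l of complex V. For 9 of the 13 genes, another probe of the same gene did not do so, and the remaining genes had only 1 probe each. The 6 higher probes read Ndufa9, Ndufv1, Ndufv3, Cox4i1, Cox7a2l and Atp5g1. For 3 of these genes, Ndufv3, Cox7a2l and Atp5g1, another probe did not do so, and the remaining genes had only 1 probe each. The lower probes had 25% to 45% G and C with a median of 35%, and the higher ones 41.7% to 55% with a median of 45%. With the common 75th percentile 13 members were lower on all 4 arrays and 1 was higher, and the share of all probes was not counted there.

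Probes of the same gene disagreed on slide 2. Of 25 genes with several probes detected throughout, the range of the shift within a gene had a median of 0.16 and 1.26 on the female arrays and 0.96 and 0.14 on the male arrays, and it exceeded 1 in 0, 14, 12 and 0 genes. Within a sex, 11 of the 25 genes had probes on both sides of 0 in females and 9 in males. Probes that overlap disagreed as well. In 21 pairs of probes, from 11 genes, the 60-base probes matched over at least 20 bases (from 23 to 59), with up to 10% mismatches allowed. Several of these pairs read Atp5l, with 2 to 4 mismatches each. The median absolute difference of the shifts in the 21 pairs was 0.08 and 0.57 in females and 0.96 and 0.09 in males. For 26 pairs that share fewer bases it was 0.15 and 0.81, and 0.63 and 0.15. Between the 2 mg arrays it was 0.06 and 0.07.

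The probes of Uqcrh, the hinge protein of complex III, and of Ndufb2, an accessory subunit of complex I, are shown as the plainest cases. The Uqcrh probes share 53 bases with 1 mismatch, G12A counted from the 5′ end of the stretch printed (mm9 chr4:115739594-115739623, minus strand), which is in capitals. The Ndufb2 probes share 30 bases with no mismatch (mm9 chr6:39549396-39549425, plus strand, for the second).
Uqcrh, first probe: ctcttctgtgtGactagcagtgacttcatc
Uqcrh, second probe: ctcttctgtgtAactagcagtgacttcatc
Ndufb2, shared stretch: aggtgagacatttcaagaaattacagactt
The shifts of the Uqcrh probes differed by 0.06 and 2.90 in females and 1.03 and -0.03 in males, and those of the Ndufb2 probes by 0.03 and 2.16 in females and 1.45 and 0.51 in males. Both pairs thus lay far apart on the slide 2 arrays and, for Uqcrh, nearly together elsewhere.

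**Figure D4:**
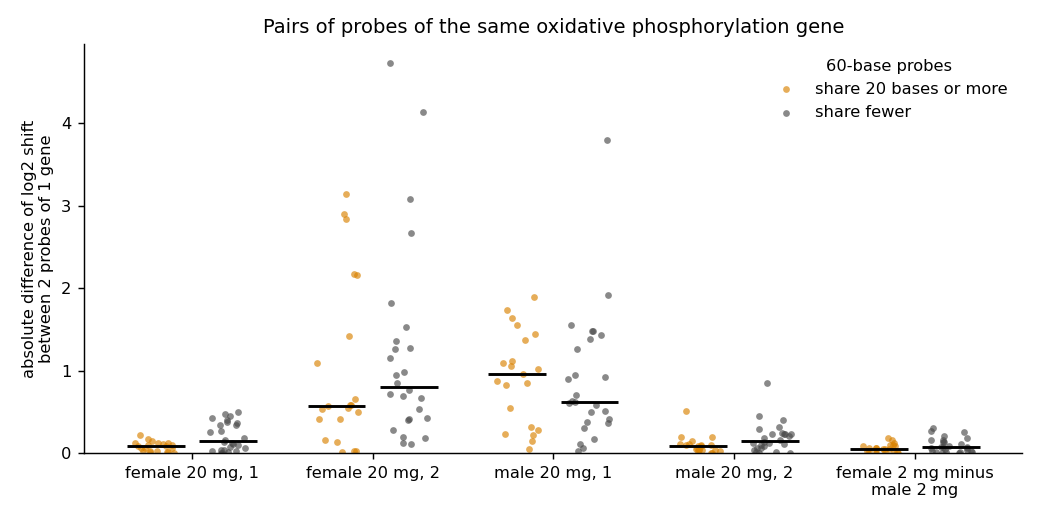
Absolute difference between the log2 shifts of 2 probes of the same gene (y axis) on the 4 arrays at 20 mg and between the 2 mg arrays, 1 point per pair. Pairs are split by whether the 60-base probes share at least 20 bases, with up to 10% mismatches allowed. The pairs lie close to 0 outside slide 2 (highest 0.85), while on slide 2 they reach 4.72.

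The shifts of the members also followed base composition on the male arrays. Over the 116 probes detected throughout, the Pearson correlation of the shift with G and C content was -0.07 and 0.21 in females and 0.60 and 0.60 in males, beside -0.18 and 0.12, and 0.04 and 0.48, over all 12408 such probes. The points share the arrays and, for several genes, the transcript. On male replicate 1 the median shift was -0.61 for 42 probes under 40% G and C, 0.07 for 52 probes from 40% to under 50%, and 0.55 for 22 probes at 50% or above. On male replicate 2 it was -0.61, -0.22 and -0.05 for the same probes. Over all probes detected throughout, the same bins gave -0.05, 0.23 and 0.25 on male replicate 1 and -0.60, -0.14 and 0.60 on male replicate 2. The median G and C content was 45% for complex I, 43.3% for complexes III and IV, 40% for complex V and 38.3% for complex II. The part of base composition in the differences between complexes was not tested.

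**Figure D5:**
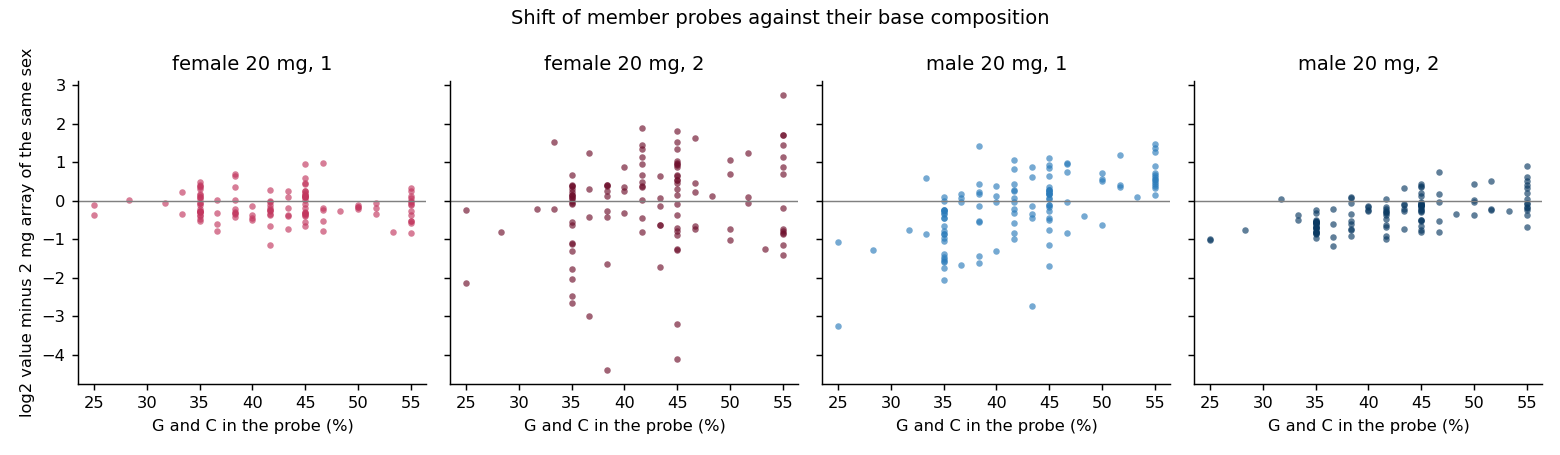
Shift in log2 units (y axis) against G and C content in percent (x axis) for the 116 probes well above background on all 6 arrays, 1 panel per array at 20 mg. The cloud tilts upward on both male arrays (Pearson 0.60 each) and is nearly level on female replicate 1 (-0.07).

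Promoters of these genes are known to bind the factors NRF1, GABPA of the ETS family and YY1. In RefSeq sequence of GRCm38.p6, 74 of the 90 genes had a promoter window of 250 bases before to 50 after the start. On either strand TGCGCA, the core of the NRF1 site, lay in 25.7% of them against 11% of 17492 protein-coding genes, CCGGAAG, the ETS core, in 23.0% against 12.9%, and ATGGCGG, the YY1 core, in 14.9% against 6.05%. Any of the 3 lay in 52.7% against 25.5%. The 150 bases before the start are printed for Ndufb7 (chr8:83566608-83566757, plus strand) and Sdha (chr13:74350241-74350390, minus strand), which had the highest and the lowest difference over both sexes of their complexes, with the motifs in capitals.
Ndufb7: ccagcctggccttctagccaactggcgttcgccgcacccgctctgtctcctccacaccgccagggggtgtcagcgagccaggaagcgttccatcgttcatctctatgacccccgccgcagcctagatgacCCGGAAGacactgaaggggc
Sdha: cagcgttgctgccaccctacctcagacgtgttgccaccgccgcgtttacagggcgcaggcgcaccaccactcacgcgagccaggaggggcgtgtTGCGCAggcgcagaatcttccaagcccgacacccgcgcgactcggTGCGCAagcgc
Ndufb7 holds the ETS core and Sdha holds the NRF1 core at 2 places. A match of letters is a description and shows no binding.

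Other genes of the pathway were taken from lists by role, and limma called 0 of them. By the 2.5-fold rule, 2.17% of all probes were lower and 1.42% higher in males, and 10.3% lower and 8.65% higher in females. The counts in the lists below stand beside these shares. Of 21 subunits and carriers outside the name rule that were found, 1 was lower by the 2.5-fold rule in males, and 1 was lower and 1 higher in females. Of 26 assembly factors found, 1 was lower in males, and 1 was lower and 1 higher in females. The lower one in both sexes was Cox17, a copper chaperone for complex IV, with 7.11, 7.31, 3.56, 6.65, 3.32 and 5.23. Female 20 mg replicate 1 lay above its control and the other 3 arrays at 20 mg below. Of 15 regulators of mitochondrial biogenesis, 2 were lower in females and none in males, namely Ppargc1b, a coactivator, and Tfam, which packages mitochondrial DNA. Tfam gave 9.93, 11.39, 4.98, 10.26, 11.22 and 9.73, with the female pools at 20 mg on both sides of their control. Of 13 citric acid cycle enzymes, 1 was lower in females, the succinyl-CoA ligase gene Suclg2, with 7.53, 8.02, 3.64, 7.74, 9.28 and 5.95.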

How the data were processed

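The 6 single-colour arrays of P1 pups were assigned to sex and dose from their labels. To obtain the intensities, the authors ran Agilent Feature Extraction 10.7.3.1, which subtracts background, corrects trends over the slide and puts substitute values near background, without scaling between arrays. The log2 values of the authors' deposited value table, quantile normalized with a floor in BRB-ArrayTools, served as an alternative. Probe positions are mm9, as the files give them.

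Here, spots with outlier flags were dropped and the processed signal was averaged per probe. Its log2 was quantile normalized across all 6 arrays, with a floor of 10 (log2 3.32) set afterwards. The 2.5-fold rule set the mean of the 20 mg arrays against the 2 mg array among probes with a variance p at or under 0.05 and at most 50% missing. limma 3.58.1 in R 4.3.3 fitted 4 groups with a trend on probes well above background on at least 2 arrays, with Benjamini-Hochberg adjustment over all 37211 probes and 2 residual degrees of freedom. It was tested on simulated data. The lone 2 mg array of a sex is assumed to vary like the 20 mg arrays. A gene of several probes is named by its brightest, and others are given where they differ. Genes named are the redox and catalytic core, the isoform sets, those past a threshold on both arrays or in both sexes, and the extremes of each complex. The members and lists were chosen with earlier results of these data known. The number of arrays limits the precision. A member gene is counted but its own values are not reported here. There were 0 columns of other samples. Alternatives were other scaling, background correction, filters, arrays left out, scan day and replicate number.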

Additional observations from a re-analysis of the deposited data

Results flagged for a closer look

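For Ndufv2 and Cox5b both female pools at 20 mg lay on one side of their control and both male pools on the other, at the brightest probe. The female minus male difference of the dose effect was 1.51 for Ndufv2 and -1.11 for Cox5b on the log2 scale. By limma's interaction contrast the unadjusted p was 0.271 and 0.392, and the adjusted p was 1 for each. The Cox5b probe is the one placed on chromosome 15, and its other probe did not show the pattern.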

How the results depend on the processing

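limma called 0 members in each contrast under all 14 alternatives, including the scan day as a fixed block. The replicate block gave 0 members as well, and the numbers are not known to pair the pools (correlation of same-numbered deviations 0.09 over all probes and -0.31 over the members). That block called the most probes of any setting with all 6 arrays kept, 13 of 37211 over both sexes. A count of 0 members is near that share. More of all probes were called in females without female replicate 1, in a fit with 1 array per female group. The slide as a random block could not be fitted, because groups and slides together use all 6 degrees of freedom.

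Counts by the 2.5-fold rule moved. Under the alternatives only members were counted. Neither these counts nor those on all 4 arrays below therefore have a share of all probes beside them. With the common 75th percentile, under which the variation filter kept 0 members, 0 were lower in males and 0 in females, and the medians of the members were -0.47 in males and 0.38 in females. The authors' deposited table gave 1 higher in females. Restricting to probes well above background on all 6 arrays left 1 lower in males and 3 in females, and dropping the variation filter gave 4 lower in males. Leaving out each 20 mg array in turn gave 1 to 7 lower and 0 to 3 higher in males, 0 to 13 lower and 0 to 1 higher in females, and medians from -0.29 to 0.0585 in males (the highest without male replicate 2) and from -0.14 to 0.05 in females. Without both arrays of slide 2, chosen after seeing the data, 1 was lower and 3 higher in males and 0 lower in females, with medians of -0.26 and -0.15. Without slide 2, the dose difference of the named probes changed sign in 32 of 90 values, counted per probe and sex. The directions on all 4 arrays, and the female minus male contrast, were also put through the alternatives only after seeing the data, with 13 to 17 members lower and 1 to 6 higher over 6 of them. Apart from the settings whose construction shows why (fewer probes or arrays), the cause was not tested. Dim members, such as Cox7b2, Cox8b and Cox8c, lie too near background for a difference to be detected.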

Other observations

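The 13 subunits encoded in mitochondrial DNA, which the name rule did not take, were set beside the nuclear members. On female 20 mg replicate 1, 13 of 13 lay below the female control, with a median of -1.13, and on male 20 mg replicate 1, 11 of 13 lay below the male control, with a median of -0.42. The medians on the replicate 2 arrays were -0.51 in females, where 10 of 13 were lower, and 0.16 in males, where 4 of 13 were lower. Of all probes of the fit, 47.7% and 58.8% were lower on the female arrays (replicates 1 and 2) and 46.3% and 56.6% on the male arrays, and of the 133 nuclear members 86, 65, 65 and 103. With the common 75th percentile the medians were -1.34 and 0.56 in females and -1.03 and 0.08 in males. Those of all probes detected on all 6 arrays were then -0.07 and 0.91 in females and 0.02 and -0.42 in males. The sign on female replicate 2 thus turned with the scaling. Under both scalings the median there lay below that of all such probes, which was 0.43 with quantile normalization. Between nuclear and mitochondrial genes no test was made.

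Of the 13, ND3 and ND6 passed the 2.5-fold rule, ND3 as lower in both sexes and ND6 as higher in females. The shares of all probes were 2.17% lower in males, and 10.3% lower and 8.65% higher in females. ND3, a complex I subunit, gave 16.39, 13.90, 10.86, 16.12, 13.23 and 15.77, lower on all 4 arrays at 20 mg. ND6, the complex I subunit read from the other strand of mitochondrial DNA, gave 7.96, 7.87, 14.06, 8.49, 6.69 and 12.13, with replicates 2 above and replicates 1 below their controls in both sexes. limma called 0 of the 13 in any contrast.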
